A study of Mus musculus with 3 samples.

Results

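The genes described here are 40 mouse genes of the cell cycle: 15 that act around the G1/S transition, 8 of DNA replication and 17 of the G2 phase and mitosis. They are 40 of 21883 protein-coding genes on placed chromosomes, chosen by function and with knowledge of which of them lay near peaks, so selected on the readout. The peak positions of all 3 libraries were the values behind that choice, so every count of these genes below is a description and carries no test. The readout was CUT&Tag: a transposase held at the protein of interest by an antibody fragments nearby DNA and adds sequencing adapters to it. The protein was ZFP410, a zinc finger factor known above all for activating Chd4, which encodes a remodeler of the NuRD complex. The cells were brown preadipocytes, precursors of thermogenic fat, sorted from brown fat of male C57BL/6 mice as Lin−CD29+CD34+Sca1+ cells. The induced group was probed for ZFP410 after 3 days of brown adipocyte differentiation medium, the untreated group was probed for ZFP410 without that medium, and the IgG group was untreated cells probed with control IgG. No genetic change was named for any group, and the mice behind a library were not numbered. Each group was 1 library, so no difference below has a replicate check and none has a p-value. Peak lists hold no expression values, so the sorted cell type could not be checked against its marker genes here.

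In G1, D-type cyclins with CDK4 and CDK6 inactivate the retinoblastoma protein, which frees E2F factors to switch on genes of DNA synthesis. Later genes, of the G2 phase and mitosis, are known to be driven through CCAAT boxes, which NF-Y binds, and through CHR elements, which the MuvB complex binds. Preadipocytes are known to stop dividing as they become adipocytes, and many of these genes are known to fall in expression as they do.

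The peak nearest to the top of the lists among the 40 genes lay between Prr11 and Ska2, 2 mitosis genes that start 546 bp apart on opposite strands of chromosome 11. Ska2 encodes a subunit of the SKA complex, which couples kinetochores to spindle microtubules. Prr11 encodes a proline-rich protein known in human cells to act in cell cycle progression. E2f3, a G1/S activator gene, and Pcna, the gene of the replication sliding clamp, also had ZFP410 peaks before their starts in both lists. The Mcm5 start, a replication licensing gene, had a peak in the untreated list only. Promoter sequences of these genes are shown because the summits of their peaks lay in or next to them. Each runs 5′ to 3′ on the strand of its gene, from 250 bases before to 50 bases after the annotated start, and comes from RefSeq, build GRCm38.p6. Capitals mark matches, on either strand, to the CCAAT box (CCAAT), the CHR element (TTTGAA, or its variant TTCGAA) and E2F letters (TTCCCGC or TTGGCGC). The windows are chr11:87109011-87109310 on the plus strand for Ska2, chr11:87108665-87108964 on the minus strand for Prr11, chr13:29986014-29986313 on the minus strand for E2f3, chr2:132253131-132253430 on the minus strand for Pcna, and chr8:75109259-75109558 on the plus strand for Mcm5.
Ska2: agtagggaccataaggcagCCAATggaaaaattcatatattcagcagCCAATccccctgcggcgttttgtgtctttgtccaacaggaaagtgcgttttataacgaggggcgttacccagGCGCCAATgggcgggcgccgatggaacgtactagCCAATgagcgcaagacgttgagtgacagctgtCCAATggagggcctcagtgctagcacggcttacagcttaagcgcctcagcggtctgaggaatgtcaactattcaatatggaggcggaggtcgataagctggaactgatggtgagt
Prr11: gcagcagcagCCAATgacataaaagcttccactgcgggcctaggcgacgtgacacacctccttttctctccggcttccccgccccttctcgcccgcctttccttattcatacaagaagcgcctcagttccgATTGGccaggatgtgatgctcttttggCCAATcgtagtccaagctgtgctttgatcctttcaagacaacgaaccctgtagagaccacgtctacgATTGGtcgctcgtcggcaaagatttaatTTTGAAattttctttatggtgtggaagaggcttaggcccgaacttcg
E2f3: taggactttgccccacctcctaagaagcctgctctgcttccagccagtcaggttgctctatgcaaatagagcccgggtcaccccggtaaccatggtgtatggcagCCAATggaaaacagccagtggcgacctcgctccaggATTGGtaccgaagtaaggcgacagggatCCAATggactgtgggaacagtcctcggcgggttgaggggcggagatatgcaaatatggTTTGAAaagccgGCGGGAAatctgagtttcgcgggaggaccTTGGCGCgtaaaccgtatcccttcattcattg
Pcna: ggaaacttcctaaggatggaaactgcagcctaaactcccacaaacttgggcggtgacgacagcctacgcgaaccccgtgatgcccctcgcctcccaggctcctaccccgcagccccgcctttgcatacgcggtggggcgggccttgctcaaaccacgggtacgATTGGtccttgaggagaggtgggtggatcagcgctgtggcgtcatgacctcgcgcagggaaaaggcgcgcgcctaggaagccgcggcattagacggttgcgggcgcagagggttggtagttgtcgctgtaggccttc
Mcm5: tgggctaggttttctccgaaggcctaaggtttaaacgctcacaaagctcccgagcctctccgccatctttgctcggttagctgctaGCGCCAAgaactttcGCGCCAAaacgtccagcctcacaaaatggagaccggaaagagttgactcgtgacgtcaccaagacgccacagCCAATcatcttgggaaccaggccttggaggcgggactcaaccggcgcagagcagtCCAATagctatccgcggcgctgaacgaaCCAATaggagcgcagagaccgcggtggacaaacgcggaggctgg

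Both ZFP410 summits of the Prr11 and Ska2 peak fell in the Ska2 window, 242 bases before the Ska2 start in induced cells and 102 bases before it in untreated cells. The Ska2 window held 5 CCAAT boxes, at −231, −203, −128, −97 and −65 from the start, and 1 match to the E2F letters at −131 that overlaps the CCAAT box at −128. The Prr11 window held 4 CCAAT boxes and 1 CHR element. In the E2f3 window shown, with summits 211 bases before the start in induced cells and 93 bases before it in untreated cells, there were 3 CCAAT boxes, 1 CHR element and 1 match to each of the E2F letters. The Pcna window, with summits 151 bases before the start in induced cells and 58 bases before it in untreated cells, held 1 CCAAT box. The Mcm5 window, with the untreated summit 32 bases before the start, held 3 CCAAT boxes and 2 matches to TTGGCGC. The other promoter windows of genes with a peak at an end are not shown and held no match to these letters. They are a second E2f3 window, chr13:29984342-29984641, and the Cdk4 window, chr10:127063285-127063584, with its induced summit 313 bases before the start. A match of this kind describes the letters and is not a mapped binding site.

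The 3 lists differed in depth. There were 7475 peaks in the induced list, 3256 in the untreated list and 480 in the IgG list. Fragments at each summit were recovered from the caller's fold and −log10 p, and the genome-wide background was 0.246 fragments in the induced library, 0.110 in the untreated library and 0.0231 in the IgG library. At that background a peak needed 4 fragments to be listed in induced cells, 3 in untreated cells and 2 with IgG. The smallest listed enrichment over the genome background was thus 16.2-fold in induced cells and 27.3-fold in untreated cells for peaks with no raised local background. Chd4 served as a check of the antibody, with ranks by the caller's fold, as in all ranks below. Peak 1 of the induced list, with 227 fragments, had its summit 6973 bp from the nearer Chd4 end. The peak ranked 2 of the untreated list, with 35, had its summit 6972 bp from it. Within 1 kb of a Chd4 end, the induced list held a peak of 52 fragments, ranked 25. The best-ranked such peak of the untreated list had 10 fragments and rank 142. No IgG peak lay within 1 kb of the Chd4 ends.

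A gene was counted where a peak summit lay within 1 kb of either end of the gene, called a gene-end peak. Among the 40 genes, 8 had a gene-end peak in induced cells, where 8.43% of all coding genes did. In untreated cells 6 had one, where 3.73% of all coding genes did. In the IgG list 0 of 40 had one, where 0.0366% of all coding genes did, and the IgG summit closest to any of them lay 141129 bp from Ccnb1. Counting a peak shared by several of the genes once, there were 8 peaks in induced cells, as Pcna had a second one, and 5 in untreated cells. Ccna2, E2f3, Pcna, Prr11 and Ska2 were listed in both, Cdca2, Cdk4 and Mcm4 in induced cells alone, and Mcm5 in untreated cells alone, which leaves 31 genes with no gene-end peak in either. Of all coding genes, 2.40% were listed in both, 6.03% in induced cells alone and 1.33% in untreated cells alone. By class, gene-end peaks stood at 2 of 15 G1/S genes in induced cells and 1 of 15 in untreated cells, at 2 of 8 replication genes in each, and at 4 of 17 mitosis genes in induced cells and 3 of 17 in untreated cells. With summits inside a gene also counted, induced cells had 10 of the 40 (15.8% of all coding genes) and untreated cells 7 (7.82% of all coding genes). The added genes were Cdk6 and E2f2 in induced cells and Ccnd3 in untreated cells.

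**Figure D1:**
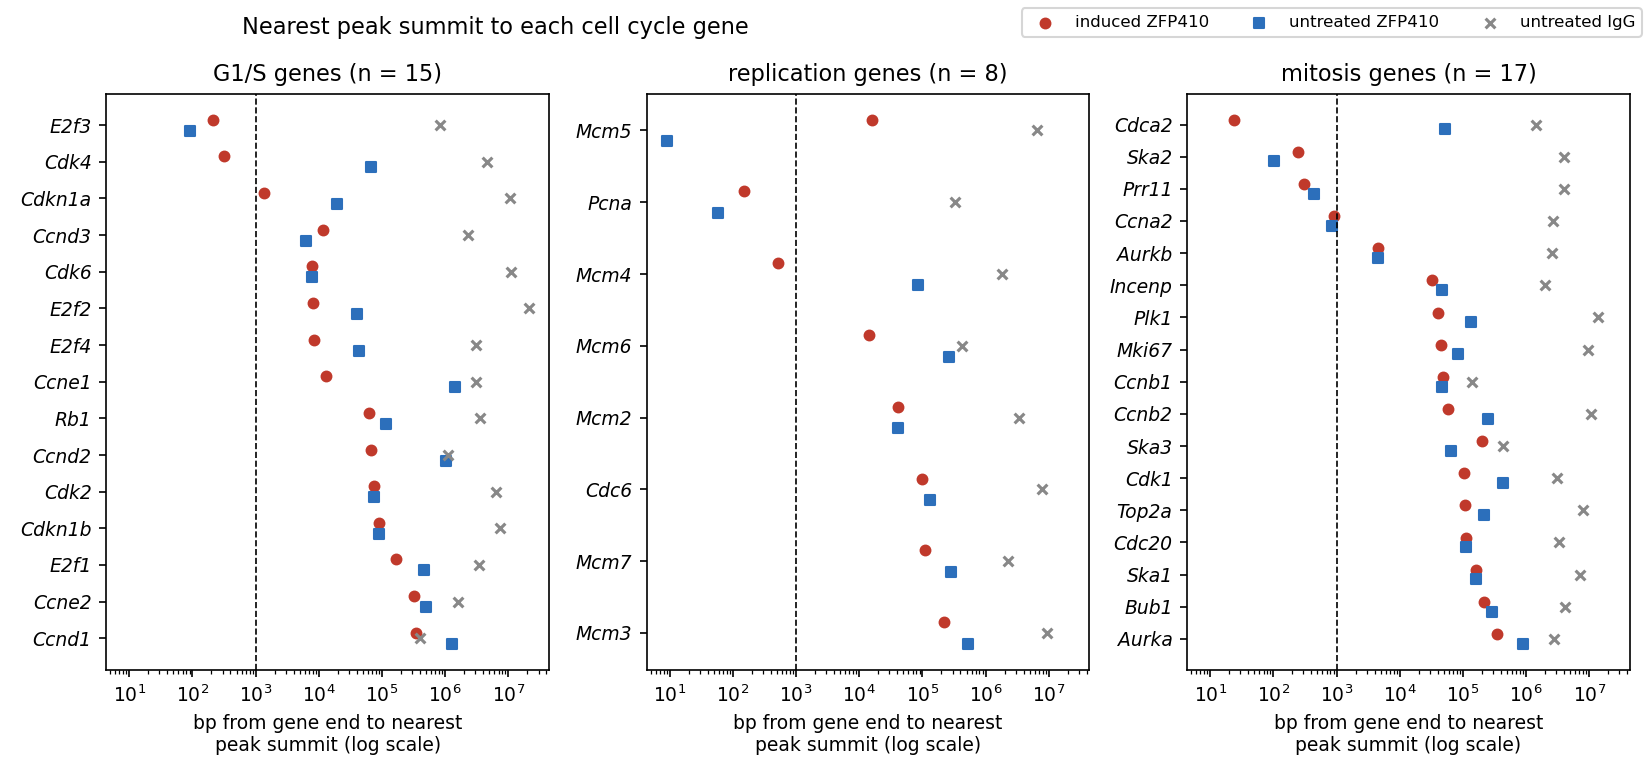
Distance in bp, on a log scale, from the nearer end of each of the 40 genes to the nearest peak summit in the induced ZFP410, untreated ZFP410 and untreated IgG lists, by class, with 1 point per gene and list and the 1 kb window as a dashed line. In the induced list 8 genes lie left of the line and in the untreated list 6, while IgG points start at 141129 bp.

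Of the G1/S genes, E2f3, whose product activates S phase genes, had the most fragments. Its peak, chr13:29986106-29986648, held 31 fragments in induced cells (95% Poisson interval 21.1 to 44.0), against 15 (8.40 to 24.7) at chr13:29986108-29986346 in untreated cells. These are enrichments over the genome background of 126-fold in induced cells and 136-fold in untreated cells, and the peak ranked 118 of 7475 in the induced list and 64 of 3256 in the untreated list. The local background there was 2.1 times the genome background in both lists. These are not separate readings if both lists had the same control. Cdk4, the cyclin D partner kinase, had a peak in induced cells only, chr10:127063132-127063396, with 14 fragments (7.65 to 23.5), an enrichment of 56.9-fold and a summit 313 bp before the start. At equal enrichment the untreated library would have held 6.25 fragments there, and 4 were needed for a listing. The nearest untreated summit to Cdk4 lay 67197 bp away.

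Another 3 G1/S genes had a peak inside the gene only. Cdk6, the other cyclin D kinase, had an induced peak of 9 fragments at chr5:3437616-3438378, 94225 bp downstream of its start. E2f2, an activating E2F gene, had one of 4 fragments in induced cells at chr4:136180166-136180447, 494 bp upstream of its second annotated start. That is the fewest the induced list shows, and the same enrichment would have given 1.79 fragments in untreated cells, below the 3 needed. Ccnd3, a D-type cyclin gene, had one of 3 fragments in untreated cells at chr17:47593431-47593676, 16 bp upstream of its second annotated start, where equal enrichment would give 6.72 fragments in induced cells and 4 were needed. Cdkn1a, which encodes the CDK inhibitor p21, lay just outside the window: its induced peak of 4 fragments had its summit 1332 bp from the gene. Cdk6 also had a peak in both lists 7.9 kb from the gene, with 13 fragments in induced cells and 5 in untreated cells, and E2f4, a mainly repressive E2F gene, had an induced peak of 15 fragments 8384 bp away. Ccnd1, Ccnd2, Ccne1, Ccne2, Cdk2, Cdkn1b, E2f1 and Rb1 had no summit within 10 kb in either list.

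Of the replication genes, Pcna was the one listed in both. Its peak before the start, chr2:132253149-132253475, held 13 fragments in induced cells (6.92 to 22.2), against 8 (3.45 to 15.8) at chr2:132253169-132253332 in untreated cells. The enrichments were 52.8-fold in induced cells and 72.8-fold in untreated cells. Cds2, a phospholipid synthesis gene, starts 157 bp away on the opposite strand, and the summit lay 7 bp from it in induced cells and 100 bp from it in untreated cells, so the peak cannot be given to either gene. A second induced peak of 6 fragments lay 542 bp inside Pcna, where equal enrichment would give 2.68 fragments in untreated cells, below the 3 needed.

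The MCM genes, whose products form the replicative helicase, gave 1 peak per list. Mcm4 had a peak in induced cells only, chr16:15637436-15637923, with 8 fragments (3.45 to 15.8) and 32.5-fold enrichment, its summit 519 bp outside Mcm4 and 475 bp inside Prkdc, a DNA repair kinase gene whose end lies 43 bp from that of Mcm4. Equal enrichment would give 3.57 fragments in untreated cells, where 3 were needed. Mcm5 had the reverse listing: a peak in untreated cells only, chr8:75109445-75109590, with 5 fragments (1.62 to 11.7), 45.5-fold enrichment and a summit 9 bp inside the gene's lower end. Equal enrichment would give 11.2 fragments in induced cells, where 4 were needed, and the nearest induced summit lay 15797 bp away. Mcm2, Mcm3, Mcm6, Mcm7 and the loading factor gene Cdc6 had their nearest summits between 14.3 and 220.9 kb away in induced cells and between 40.8 and 518.6 kb away in untreated cells.

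Of the mitosis genes, the shared Prr11 and Ska2 peak, chr11:87108674-87109497 in induced cells and chr11:87108752-87109299 in untreated cells, stood highest. It held 59 fragments in induced cells (44.9 to 76.1), against 27 (17.8 to 39.3) in untreated cells. The enrichment was 240-fold (182 to 309) in induced cells and 246-fold (162 to 357) in untreated cells, and the peak ranked 16 of 7475 in the induced list and 5 of 3256 in the untreated list. At the untreated enrichment the IgG library would have held 5.66 fragments there, where 2 were needed, and no IgG peak was listed. At E2f3 the number expected with IgG was 3.15. The 2 needed apply at the genome background, and the local background at E2f3 was 2.1 times that, so its missing IgG peak says less. The number expected with IgG was 1.68 at Pcna and at Ccna2 and 1.05 at Mcm5, below the 2 needed, so a missing IgG peak says little there. The partners of Ska2 had no gene-end peak: Ska1 had its nearest summit 159.9 kb away in induced cells and 159.8 kb away in untreated cells, and Ska3 203.7 kb away in induced cells and 64.2 kb away in untreated cells.

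Cdca2 had the largest peak of the induced list alone among the 40 genes. Its product, also called Repo-Man, brings protein phosphatase 1 to chromosomes at the end of mitosis. The peak, chr14:67715693-67716430, held 33 fragments (22.7 to 46.3), an enrichment of 134-fold, and ranked 258 in the induced list, with its summit 24 bp from Cdca2 and 221 bp from Kctd9, whose end lies 244 bp from that of Cdca2. The local background there was 4.2 times the genome background. Equal enrichment would give 14.7 fragments in untreated cells, where 5 were needed, and the nearest untreated summit lay 51474 bp away. The lists do not hold fragment numbers at places with no peak, so the untreated level at Cdca2 is known only as below listing. The IgG library came from untreated cells, so the Cdca2, Cdk4 and Mcm4 peaks have no IgG control of their own condition here.

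Ccna2 encodes cyclin A2, which acts in S phase and at mitotic entry, and its peak lay just inside the 1 kb window. It held 12 fragments (6.20 to 21.0) at chr3:36571779-36572324 in induced cells, against 8 (3.45 to 15.8) at chr3:36571926-36572271 in untreated cells, with enrichments of 48.7-fold in induced cells and 72.8-fold in untreated cells. The summit lay inside the gene, 912 bp from its upper end in induced cells and 857 bp from it in untreated cells. Bbs7, a ciliary gene 103 bp further up, was within 1 kb of the untreated summit only, at 961 bp. Aurkb, the kinase gene of the chromosomal passenger complex, had a peak 4498 bp from the gene in both lists, with 9 fragments in induced cells and 7 in untreated cells. Ccnb1, Ccnb2, Cdk1, Plk1, Aurka, Bub1, Cdc20, Top2a, Mki67 and Incenp, among them the core drivers of mitotic entry and exit, had no summit within 10 kb in either list.

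**Figure D2:**
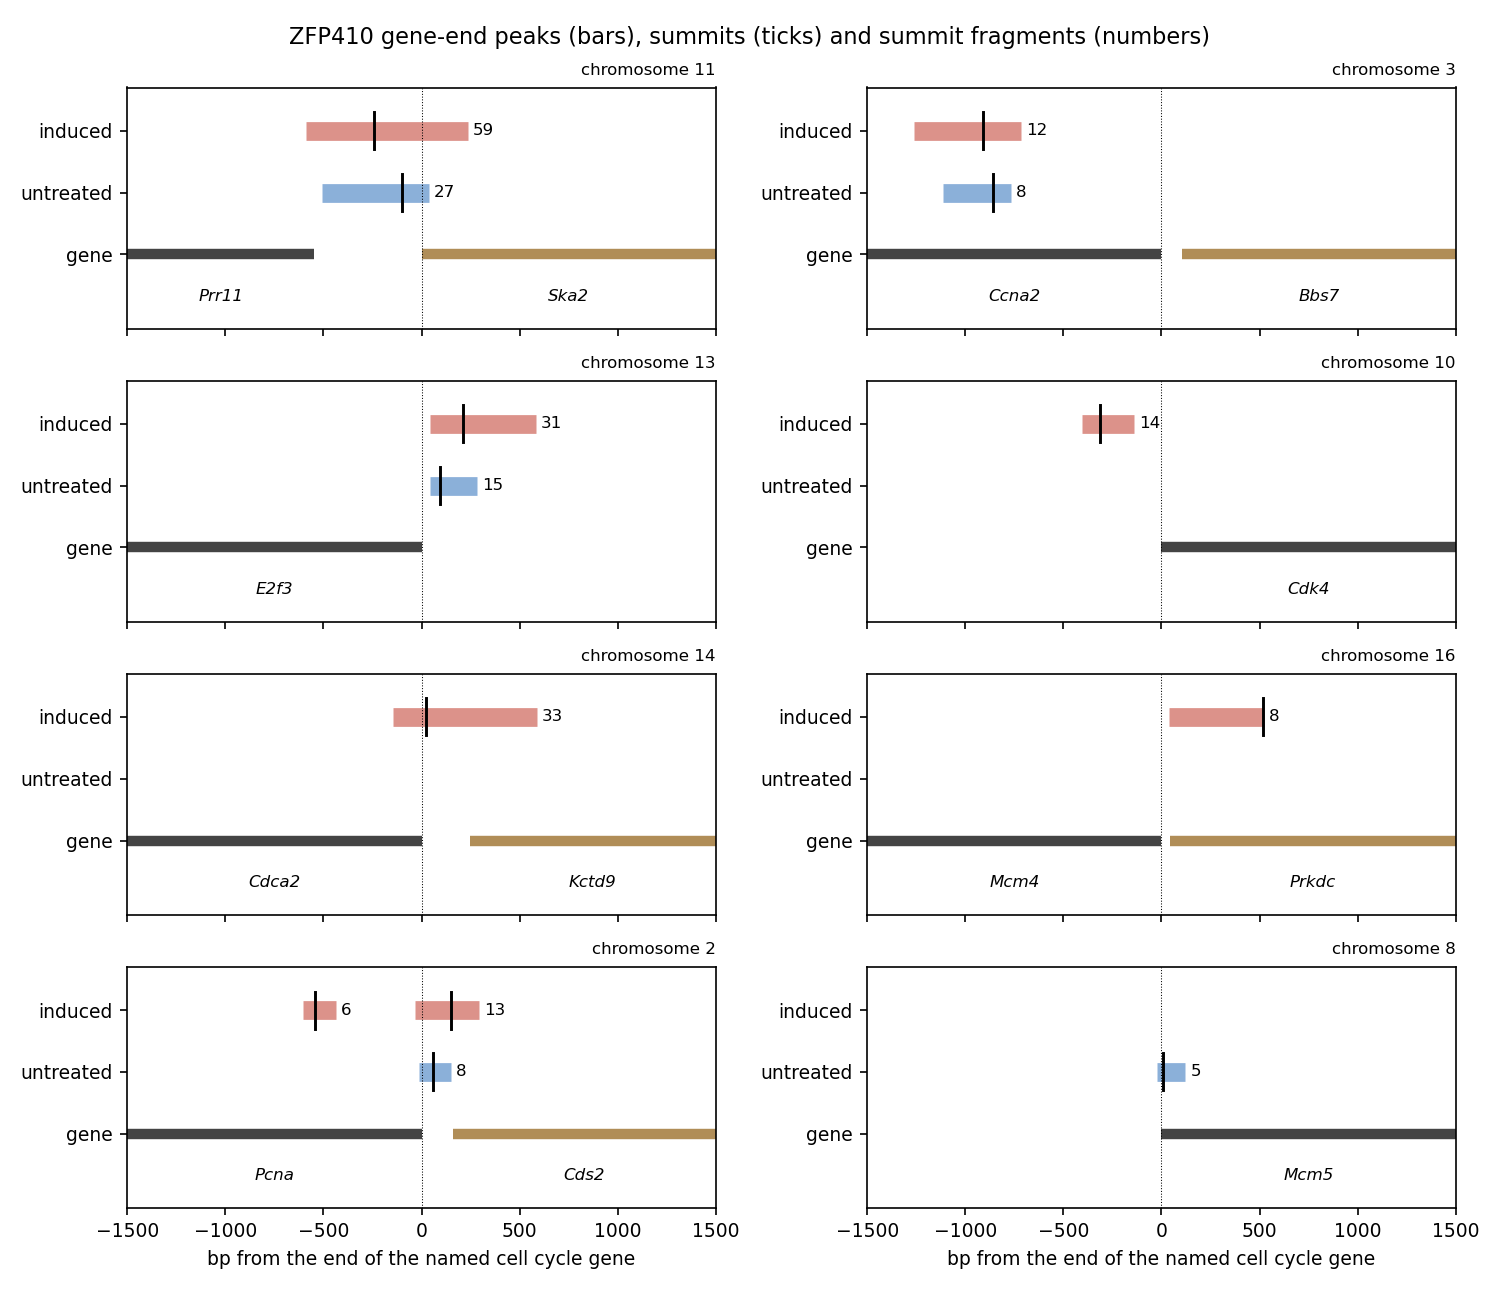
Peaks at the gene ends described in the text, drawn in bp from the end of the named cell cycle gene (for Prr11 and Ska2, the Ska2 end), with bars for peak width, ticks for summits, numbers for summit fragments, and genes drawn as boxes. The Prr11 and Ska2 bar carries 59 fragments in induced cells above 27 in untreated cells, and Cdca2, Cdk4 and Mcm4 have an induced bar alone.

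Where both ZFP410 lists had the peak, enrichment was compared as induced over untreated, with exact binomial intervals on the fragment numbers that cover counting error only. The ratio was 0.975 (0.609 to 1.60, log2 −0.04) at Prr11 and Ska2. It was 0.922 (0.483 to 1.84, log2 −0.12) at E2f3, 0.725 (0.279 to 2.02, log2 −0.46) at Pcna and 0.670 (0.252 to 1.89, log2 −0.58) at Ccna2. All 4 intervals hold 1, and each still allows changes of 1.5 times in both directions, so no difference in enrichment was detectable at this depth. For comparison, the 433 overlapping gene-end peaks of all coding genes had a median ratio of 0.818, with quartiles of 0.625 and 1.17. All these ratios cover only peaks listed in both, and the smallest listed enrichment was 16.2-fold in induced cells but 27.3-fold in untreated cells. The effect of these unequal floors on the ratios was not tested. The distances between the induced and untreated summits at the 4 sites were 140 bp at Prr11 and Ska2, 118 bp at E2f3, 93 bp at Pcna and 55 bp at Ccna2, against a median of 64 bp over the 433.

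Gene-end peaks of the 40 genes held a median of 13.5 fragments in induced cells and 8 in untreated cells, against medians of 7 in induced cells and 5 in untreated cells over all gene-end peaks. Of the 8 induced peaks, 5 had another coding gene's end within 1 kb, and of the 5 untreated peaks, 3 did. Over all gene-end peaks, 23.0% in induced cells and 17.2% in untreated cells lay within 1 kb of at least 2 coding genes. The local background was raised at 3 of the 8 induced peaks (E2f3, Cdk4 and Cdca2) and 1 of the 5 untreated peaks (E2f3), against 31.4% in induced cells and 25.1% in untreated cells over all gene-end peaks. Fragments of induced peaks were also scaled to the untreated library by the background ratio of 2.24, a setting chosen after seeing the data. All 8 genes with an induced gene-end peak then still reached the number needed for a listing, where 4.52% of all coding genes did. This scaling leaves out counting error, and Mcm4 came to 3.57 fragments where 3 were needed.

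The median distance to the nearest summit over the 40 genes was 43.1 kb in induced cells, 85.4 kb in untreated cells and 3340 kb with IgG. Over all coding genes it was 84.8 kb in induced cells, 194 kb in untreated cells and 2630 kb with IgG. Within 10 kb there was a summit for 13 of the 40 genes in induced cells (32.5%) and 9 in untreated cells (22.5%), against 16.8% of all coding genes in induced cells and 8.53% in untreated cells. The farthest from a summit were Aurka in induced cells, at 348.5 kb, and Ccne1 in untreated cells, at 1434 kb.

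Promoter letters were counted in the RefSeq windows, which covered 29 of the 40 genes in 34 windows. CCAAT was present in 24 of 34 windows (70.6%), against 38.2% of all 21262 windows used, which covered 17491 coding genes. TTTGAA was present in 12 (35.3%, against 16.0%), TTCGAA in 3 (8.82%, against 1.85%), TTCCCGC in 6 (17.6%, against 5.95%) and TTGGCGC in 10 (29.4%, against 3.09%). Of the 7 windows of genes with a gene-end peak, 5 held CCAAT, 2 TTTGAA and 3 TTGGCGC, and the Cdk4 window held none of the letters searched. The core letters known for ZFP410, CCCATAA, were in 0 of 34 windows and in 2.41% of all windows, and those known for ZFP143, a promoter factor of many housekeeping genes, ACTACAA, were in 0 of 34 and 3.60% of all. Their absence says only that these letters are not in these windows, and no genome sequence beyond them was used here.

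A wider list of 188 cell cycle genes, drawn up from textbook knowledge when results on the 40 were known, gave the setting. Gene-end peaks stood at 37 of them in induced cells (19.7%, against 8.43% of all coding genes), at 15 in untreated cells (7.98%, against 3.73%) and at 0 with IgG. In both ZFP410 lists there were 10 (5.32%, against 2.40% of all coding genes), in the induced list alone 27 (14.4%, against 6.03%) and in the untreated list alone 5 (2.66%, against 1.33%). Scaled to the untreated library in the same way, 17 of the 188 reached the number needed for a listing in induced cells (9.04%, against 4.52%). By class, there were peaks at 24 of 103 mitosis genes in induced cells and 10 of 103 in untreated cells. Replication genes stood at 8 of 49 in induced cells and 2 of 49 in untreated cells, and the G1/S class at 5 of 36 in induced cells and 3 of 36 in untreated cells. The G1/S class of the wider list took in some genes of mitotic entry, and its 5 in induced cells include Wee1 and Cdc25c. No test of a difference between classes was made. Of the 40 induced gene-end peaks of the wider list, 22 had another coding gene's end within 1 kb, against 23.0% of all gene-end peaks. Of the 15 untreated ones, 3 did, against 17.2%. Such peaks cannot be given to either gene.

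Among the wider mitosis genes with a gene-end peak, Bub3, a spindle checkpoint gene, had 11 fragments in induced cells and 8 in untreated cells, a ratio of 0.614 (0.225 to 1.76). The most fragments at a gene-end peak were at Cdca3, which encodes a trigger of mitotic entry, with 28 in induced cells over a local background 16.5 times that of the genome. Next came Anapc2, a subunit gene of the anaphase-promoting complex, with 19, then Fzr1, an activator gene of that complex, and Haus8, a spindle augmin gene, with 12 each, all in induced cells alone. The local background was 2.19 times that of the genome at Anapc2, 3.04 times at Haus8 and 8.25 times at Fzr1, which ranked 6335 of 7475. Equal enrichment at Fzr1 would give 5.36 fragments in untreated cells, below the 7 needed. At Cdca3, Anapc2 and Haus8 the summit lay closer to the end of another gene, Usp5, Ssna1 and Myo9b. In untreated cells Bub3 was followed, among gene-end peaks, by the centromere gene Cenpu with 6 and by Cenpo, Cenpt and Ndc80, also of centromere or kinetochore, with 5 each. Peaks inside a gene only held more in some cases: Sgo2a, a centromere cohesion gene, had 29 in induced cells and 6 in untreated cells, and Stag1, a cohesin gene, had 25 in induced cells and 12 in untreated cells.

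Of the wider replication genes, Rpa2, which encodes a subunit of the single-strand binding protein RPA, had 21 fragments in induced cells and 7 in untreated cells, a ratio of 1.34 (0.548 to 3.73). Rfc4, a clamp loader gene, had 8 in induced cells and 3 in untreated cells. Cdc7, Gins4, Orc6, Pole2 and Tk1 had 6 each in induced cells alone. Of the wider genes placed in the G1/S class, Wee1, the inhibitory kinase gene of CDK1 and so a gene of mitotic entry, had the most fragments. It had 34 in induced cells over a local background 39.6 times that of the genome, and ranked 7374 of 7475 by fold. Lin52, a MuvB subunit gene, followed with 10, Cdc25c with 9 and Cdk7 with 6, while in untreated cells E2f5 had 6, E2f8 had 4 and Lin54, another MuvB subunit gene, had 3. All 10 wider genes listed in both had ratio intervals that hold 1.

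**Figure D3:**
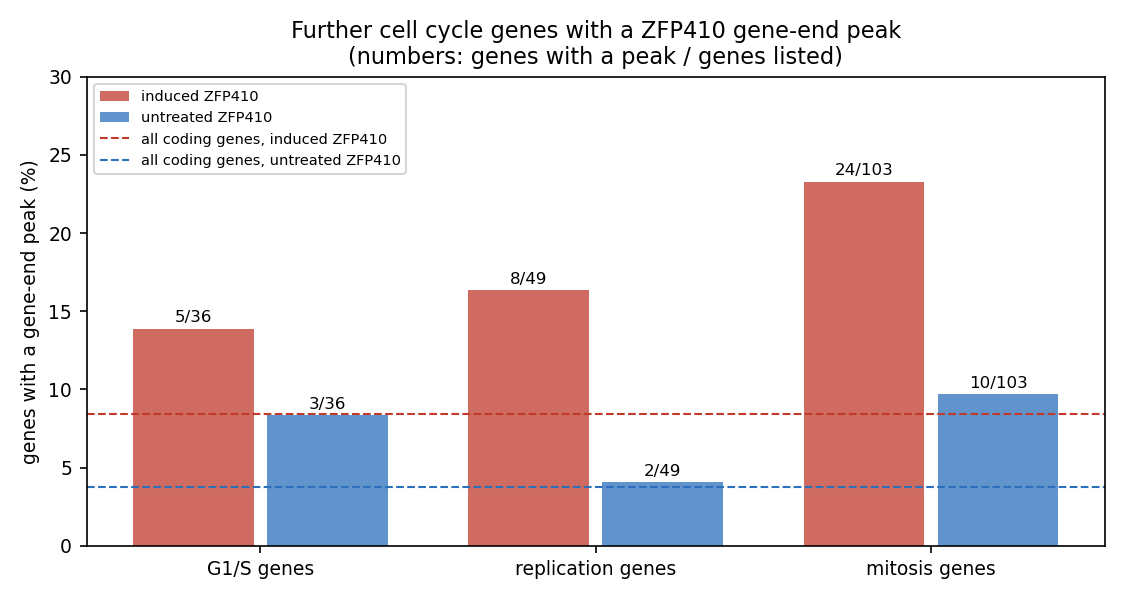
Percent of the wider cell cycle genes with a gene-end peak, by class, in induced cells (left bars) and untreated cells (right bars), with counts above the bars and dashed lines at the share of all coding genes. Mitosis genes stand at 24 of 103 in induced cells and 10 of 103 in untreated cells, and the lines lie at 8.43% for induced cells and 3.73% for untreated cells. The left G1/S bar counts Wee1 and Cdc25c, genes of mitotic entry.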

How the data were processed

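ZFP410 CUT&Tag was analysed in 1 induced and 1 untreated library, and IgG in 1 untreated library, grouped by the sample labels. The tools named were Bowtie2 2.2.6, Picard and MACS2 2.1.1, and the build mm10, per the submitters' processing notes. Each library has its own deposited peak list. The deposited lists give, from the authors' peak caller, a score, a fold (ratio) over local background, a −log10 p-value, a −log10 q-value and a summit, with a q threshold of 0.1 in the peak names. What control the caller used and whether duplicates were kept is not given in the sources used here. These values served to describe and rank peaks within a list only.

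Summit fragments and local background were solved from fold and −log10 p for 7475 of 7475 induced, 3255 of 3256 untreated and 480 of 480 IgG peaks, within 0.001 in −log10 p or 0.001% of it. Enrichment is fragments over the genome background, whose ratio, induced over untreated, was 2.24. The depth ratio of 2.01 was inferred, not measured: 29 of 175 overlapping peak pairs with raised local background stood at it. Another 110 of the 175 stood at 2.24, as if both ZFP410 lists had the same control. Fragment numbers needed in the other ZFP410 list assume such a control, with the local background scaled by 2.24. Intervals are 95% exact and cover counting error only. Gene ends came from RefSeq GRCm38.p6, which has the coordinates of mm10, and starts from its promoter table, for 29 of the 40 genes. Strand, exons, introns and UTRs were otherwise not analysed here. The recovery of fragments was tried on values simulated with the same formulas, which cannot show that the caller's values follow them.

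The 40 genes and the wider list were chosen with earlier results of these data known. Named genes were all with a peak at an end or inside, those just outside the window, neighbours sharing a peak, and, of the wider list, the 4 genes per class with most fragments in each list. Sgo2a and Stag1 were named after their values were seen. Alternatives were other windows, stricter peak thresholds, start sites only, any-base overlap, removal of peaks overlapping IgG, and other scalings. Python 3.11.15, pandas 2.3.3, numpy 2.4.6, SciPy 1.17.1 and matplotlib 3.10.9 were used.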

Additional observations from a re-analysis of the deposited data

How the results depend on the processing

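Of 47 alternatives, 43 left a count within 1.5 times, or a ratio within its interval. Some of these could hardly move a value, so the tally overstates how far the results were tried. Removing peaks that overlap IgG left the all-gene counts at 1845 in induced cells and 816 in untreated cells. Scaling by the inferred depth ratio multiplied every ratio by the same factor. The local background as denominator left the ratios nearly as they were. The 40 genes' induced count of 8 fell to 6 with a 500 bp window (7.16% of all coding genes), without Ccna2 and Mcm4. It rose to 9 with a 2 kb window (9.81%), which adds Cdkn1a. With annotated starts only, known for 29 of the 40 genes, it was 6 (7.11%). There E2f2 came in, while Ccna2, Cdca2 and Mcm4 have no start entry and could not count. The 40 genes' untreated count of 6 fell to 5 with the 500 bp window (2.99%), without Ccna2. It was also 5 at a −log10 q of at least 5 (1.00%), without Mcm5. The IgG count stayed at 0 wherever it was recounted. Counts of the wider list moved more: at a −log10 q of at least 5 its induced count was 17 and its untreated count 4, while 968 of all coding genes in induced cells and 219 in untreated cells were left. At a fold of at least 5 its untreated count was 7, with 424 of all coding genes left. With only peaks that reached the listing number when scaled to the untreated library, a setting added after seeing the data, its induced count was 17. Scaled by the inferred depth ratio, the ratio was 1.09 at Prr11 and Ska2, 1.03 at E2f3, 0.809 at Pcna and 0.746 at Ccna2. At the first 2 sites the ratio thus changed sides of 1, and every interval still held 1. No paired analysis was possible because each group held 1 library, and leaving out a library leaves no comparison. Depth limits the untreated and IgG lists most, where a gene with weak enrichment would not be listed.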
